A study of Populus trichocarpa with 28 samples.

Results

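The genes described here are the 200 most root-specific of the 41335 genes counted in Populus trichocarpa, the black cottonwood. They were chosen in the long-term control mRNA libraries on sense CPM, a gene's count scaled to the total sense gene count of its library. A mean of at least 10 CPM in root was required, which 13282 genes had. Those genes were ranked by root mean plus 0.5 over the plus 0.5 mean of the highest of apex, young leaves and mature leaves, and ranks 1 to 200 are the members. The contrast of root with shoot in those control libraries is therefore a description of the choice and carries no test.

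The study measured sense and antisense transcription in poplar under water deficit, in 28 libraries forming 14 groups of 2. All plants were grown from rooted stem cuttings in a greenhouse at 20 to 35 C and watered to field capacity for 2 months. Drought plants were then kept at 40% of field capacity, and control plants stayed fully watered. The long-term experiment had drought and control plants at 25 days, with root, apex, young leaves and mature leaves as mRNA libraries, and root also as total RNA libraries depleted of ribosomal RNA. The short-term experiment had drought and control plants at 24 hours, with apex and mature leaves as total RNA. The labels name no transgene or mutant, and whether paired libraries came from different plants is not stated, so p-values may measure only the spread between libraries. In the root, drought libraries carry the numbers 64 and 68 and control libraries the numbers 63 and 70, in both library types.

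Roots take up water and mineral ions and seal the path to the vascular cylinder with suberin and lignin barriers, and in trees they also store reserves and make defence compounds. Uptake transporters, barrier and wall enzymes and enzymes of specialised metabolism are well-known examples of root-enriched gene products, and drought is known to alter root growth and uptake. Which of these roles each member has is not given here. None of the 41335 gene IDs matched the 34621 genes of the reference table, so members are named by ID alone and the labelled tissues could not be checked by named markers. No gene sequence was at hand for these IDs.

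Sense reads per library were 51376870 to 58352615 in root mRNA, 55712373 to 67062224 in root total RNA, 20249489 to 29589429 in the long-term shoot libraries and 32306721 to 60052682 in the short-term ones. The 2 libraries of every group differed by more than counting noise, with a chi-square per degree of freedom of 28.8 to 135.1 over genes of 50 counts or more. All tests below come from a model fitted across all genes of a comparison, with drought set over control, and a gene is called at a Benjamini-Hochberg adjusted p under 0.05 in edgeR's quasi-likelihood test.

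In control roots the members ran from 10 to 15075 CPM, with a median of 38.9 CPM, and the median of their highest shoot tissue was 0.251 CPM. Of the 200, 47 reached 100 CPM in root, 6 reached 1000 CPM, and 53 lay between 10 and 20 CPM. The ratio of root to highest shoot had a median of 37.1 and reached 1955, with 33 members at 100 or more. In shoot, 161 members stayed under 1 CPM in every tissue, 14 had no read in any of the 6 control shoot mRNA libraries, and 7 reached 10 CPM. The shoot tissue with the highest mean was apex for 92 members, mature leaves for 68 and young leaves for 26. Because CPM is not corrected for gene length, levels of different members are shares of reads and not a ranking of transcripts.

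**Figure D1:**
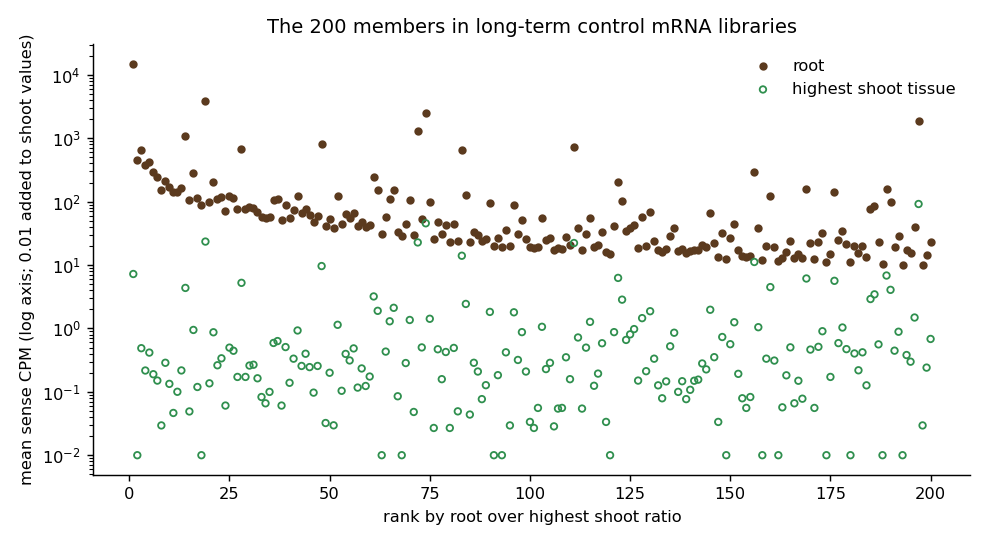
Mean sense CPM of each member in the long-term control mRNA libraries (log axis), against its rank by the ratio that chose it. Filled points are root and open points the highest of the 3 shoot tissues, drawn with 0.01 CPM added so that the 14 members without a shoot read appear at the bottom. Root values start at 10 CPM by the rule, and the open points lie mostly under 1 CPM.

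Rank 1 was Potri.008G131200, with 15075 CPM in control root mRNA and 7.21 CPM in apex, its highest shoot tissue. Its neighbour by ID, Potri.008G131100, was rank 19 and had the next highest share of reads, 3867 CPM in root and 23.4 CPM in apex. Rank 2, Potri.006G008300, had 454 CPM in root and no read in the 6 control shoot libraries. At the edge of the list, the last 2 members (Potri.008G079500 and Potri.014G021800) had ratios of 20.1847 and 20.183, and the first genes left out, Potri.001G176000 and Potri.004G185100, had 20.1646 and 20.1458. The edge is thus a point on a continuous scale.

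The members held 3.55% and 2.45% of sense reads in drought root mRNA (numbers 64 and 68), against 4.69% and 3.53% in control root mRNA (numbers 63 and 70). The drought and control libraries overlapped, the means were 3.0% ± 0.774 and 4.11% ± 0.82 (SD, n = 2 each), and an exact two-sided permutation test gave p = 0.667. For total RNA from root the share was 2.18% and 1.62% under drought, against 2.89% and 2.25% in control. Here both drought libraries lay below both control libraries, and the exact two-sided permutation p of 0.333 is the smallest that 2 libraries against 2 can give. Potri.008G131200 alone made 24.1% and 20.4% of the members' reads in drought root mRNA and 35.3% and 38.5% in control root mRNA. In bulk tissue, fewer cells of a type and less RNA per cell cannot be told apart.

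**Figure D2:**
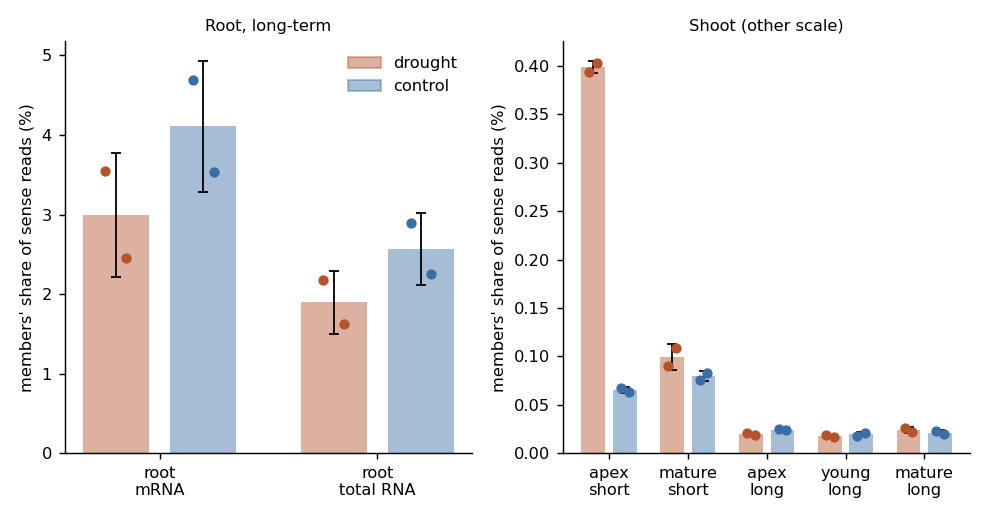
Share of all sense reads held by the 200 members in each library (%), drought left of control in each pair. Points are libraries, bars are means and error bars are SD (n = 2), and the shoot panel has its own scale. Root shares run from 1.62% to 4.69%, and among shoot groups the short-term drought apex stands above the rest at 0.394% and 0.403%.

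After 25 days of drought, members that fell outnumbered members that rose in both root library types. In root mRNA, 76 of the 200 members fell, which is 38.0% of them, while 14.7% of the 27499 genes tested fell. A further 21 members rose (10.5%), against 12.7% of all genes tested, and 103 did not pass the test. The members' median change was -0.56 on the log2 scale, where the median over all genes tested was -0.03 and that over the 13282 genes of 10 CPM or more was 0.01. Among those 13282 genes, 17.2% fell and 16.3% rose. The control root mRNA libraries of this comparison also chose the members, so its counts are not independent of the choice.

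Root total RNA libraries took no part in the choice, although they share their numbers with the mRNA libraries. There 79 members fell (39.5%, where 14.3% of the 27628 genes tested fell) and 21 rose (10.5%, where 12.1% rose). The members' median change was -0.63, against -0.03 over all genes tested. All 200 members passed the filter on low counts in both library types, so these counts and medians cover the whole list. On TMM-scaled values, both drought libraries lay below both control libraries for 116 members in root mRNA and 116 in root total RNA, where 37.4% and 37.0% of all genes tested did so. They lay above both for 39 members in root mRNA and 38 in root total RNA, where 33.8% and 33.9% of all genes did.

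The falls had the larger median size, a difference that was not tested. In root mRNA the members that fell had log2 changes of -0.51 to -5.32, with a median of -1.68, and for 62 of the 76 the level fell more than 2-fold. Those that rose had changes of 0.46 to 4.11, with a median of 1.24, and 16 of the 21 rose more than 2-fold. The medians in root total RNA were -1.72 for the 79 that fell and 1.1 for the 21 that rose. Without TMM scaling the median over all genes tested itself moved to -0.20 in root mRNA and -0.17 in root total RNA. The members' medians were then -0.73 and -0.77, so they stayed below that shift in both library types.

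The calls rest on 4 libraries per fit, and single libraries moved the counts. Without control number 63, 40 members fell and 9 rose in root mRNA, where 4.7% and 2.16% of all genes tested did. Without control number 70, 44 members fell and 11 rose, where 2.48% and 1.69% of all genes did. For root total RNA, 49 members fell and 11 rose without control number 63 (where 5.81% and 2.76% of all genes did), and 52 fell and 11 rose without control number 70 (where 3.81% and 2.44% did). Of the drought libraries, leaving out number 64 gave 92 falls and 25 rises in root mRNA (where 14.4% and 17.1% of all genes did), and leaving out number 68 gave 58 and 25 (where 8.21% and 8.63% did). The members' median was lower than 0 in each fit without 1 library, from -0.88 without drought number 64 to -0.41 without drought number 68 in root mRNA.

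Both root library types gave close to the same change for each member. A total of 73 members fell in both and 20 rose in both, while 0 were called in opposite directions and 96 were called in neither. Over genes tested in both types, 12.1% fell in both and 10.3% rose in both. The fitted changes had the same sign for 194 members, and they differed by a median of 0.10 and at most 0.90 log2 units. Tested directly, the difference in drought change between library types was called for 0 of 200 members and 0 of 28567 genes in edgeR, with 0 members and 244 genes at an unadjusted p under 0.05. DESeq2 also called 0 members. A fit with the library number as a block called 0 members and 25 genes, with 19 members (9.5%) and 2464 genes (8.63%) at an unadjusted p under 0.05. Libraries of the same number deviated from their group means together in both types, so the types are not independent replicates of each other.

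**Figure D3:**
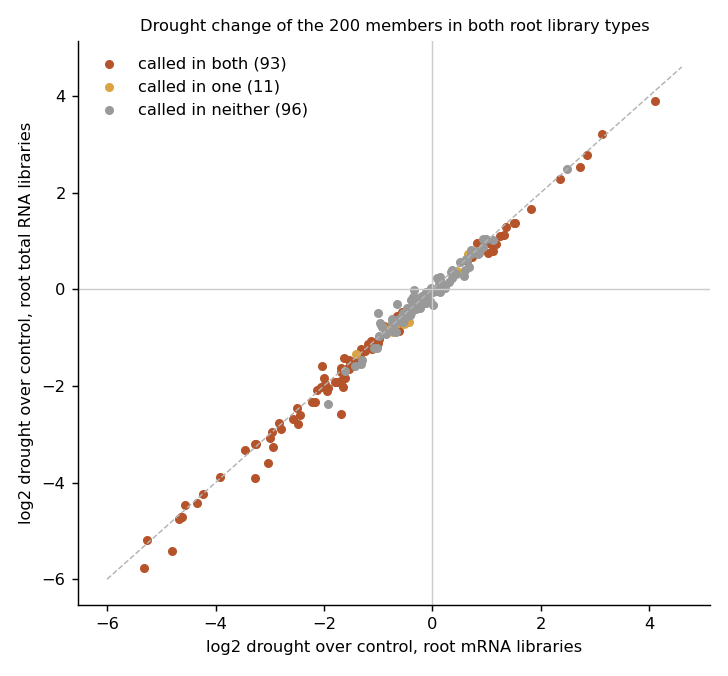
Fitted log2 change, drought over control, of the 200 members in root mRNA libraries (horizontal) and root total RNA libraries (vertical). Colours give the 93 members called in both types, the 11 called in one and the 96 called in neither, and the dashed line marks equal change. Points lie along that line from -5.76 to 4.11, with more of them below 0 than above.

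The largest rise was that of Potri.T155100, rank 110. It had 229.8 and 408 CPM in drought root mRNA, against 13.9 and 27.8 CPM in control root mRNA, a log2 change of 4.11 (SE 0.49, adjusted p = 0.00975). In root total RNA it had 303 and 565 CPM under drought, against 23.0 and 41.6 CPM in control, a log2 change of 3.89 (SE 0.48, adjusted p = 0.0109). All 4 drought libraries were far above all 4 control libraries, and within each arm the library with the higher mRNA value also had the higher total RNA value.

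Potri.001G235500, rank 190, was the other member with a rise above 3 log2 units. Its level was 626 and 879 CPM in drought root mRNA, against 114 and 80.6 CPM in control root mRNA (log2 change 3.13, SE 0.28, adjusted p = 0.00687). Total RNA libraries gave 309 and 443 CPM under drought, against 51.4 and 38.4 CPM in control (log2 change 3.21, SE 0.26, adjusted p = 0.00652). The arms did not overlap in either library type.

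Potri.005G258400, at rank 12 the highest-ranked of the members that rose in root mRNA and chosen here after its values were seen, had 668 and 989 CPM in drought root mRNA, against 114 and 169 CPM in control root mRNA. Its log2 change was 2.72 (SE 0.31, adjusted p = 0.00911). In total RNA it had 677 and 1064 CPM under drought, against 136 and 195 CPM in control, and the arms were again far apart.

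The deepest fall in both library types was that of Potri.011G023600, rank 133. It had 0.314 and 0.397 CPM in drought root mRNA, against 18.0 and 14.2 CPM in control root mRNA (log2 change -5.32, SE 0.25, adjusted p = 0.00526). Its total RNA values were 0.104 and 0.323 CPM under drought, against 13.9 and 11.2 CPM in control (log2 change -5.76, SE 0.47, adjusted p = 0.00652). No shoot library exceeded 0.124 CPM, so all but 1 of the 4 drought root libraries stayed above every shoot library.

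Potri.013G131000, rank 21, started from a far larger share of control reads. It had 3.97 and 5.52 CPM in drought root mRNA, against 234 and 175 CPM in control root mRNA (log2 change -5.26, SE 0.27, adjusted p = 0.00577). In root total RNA it had 2.71 and 4.04 CPM under drought, against 159.6 and 113 CPM in control (log2 change -5.19, SE 0.31, adjusted p = 0.0058). Potri.007G086400, rank 80, was the second deepest fall in total RNA, with 0.254 and 0.521 CPM under drought, against 26.2 and 9.83 CPM in control (log2 change -5.41, SE 0.67, adjusted p = 0.011). Its control libraries differed from each other by more than a factor of 2, yet both stayed well above both drought libraries. The calls of Potri.T155100, Potri.001G235500, Potri.011G023600, Potri.013G131000 and Potri.007G086400 were kept under each of the 9 alternatives run for them.

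**Figure D4:**
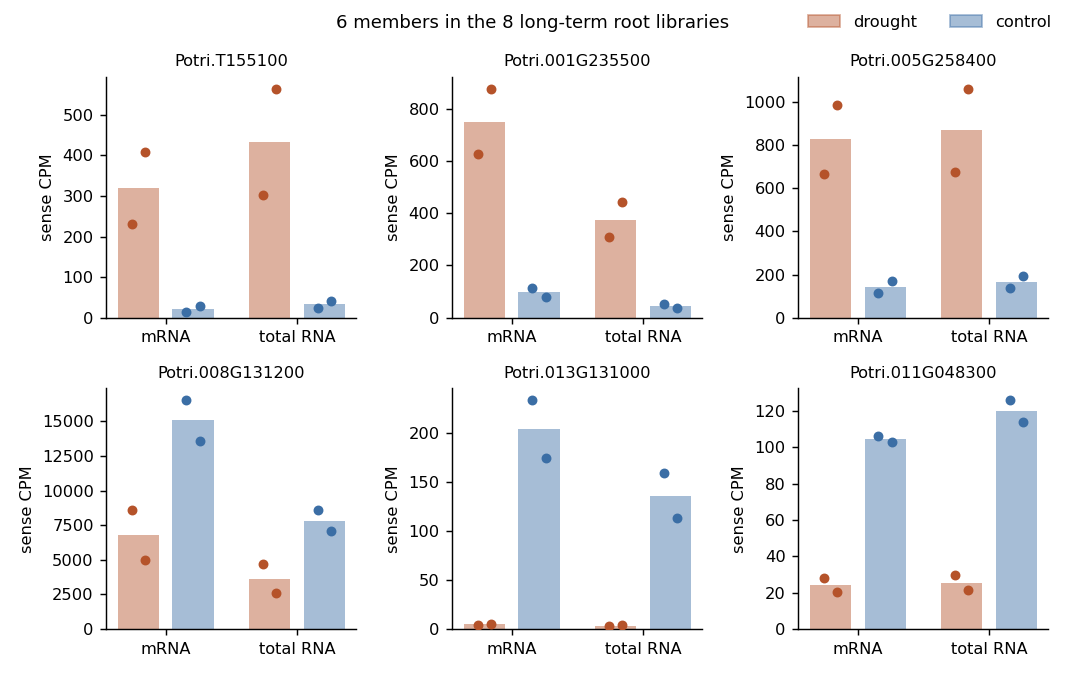
Sense CPM of 6 members in the 8 long-term root libraries, drought left of control within each library type. Points are libraries and bars their mean (n = 2), and each panel has its own scale starting at 0. Potri.T155100, Potri.001G235500 and Potri.005G258400 are higher under drought, Potri.013G131000 and Potri.011G048300 lower, and Potri.008G131200 is lower in both types without passing the test.

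Neither of the members with the largest shares of reads in control root mRNA passed the drought test there, and rank 2 did not either. This does not hold for highly expressed members in general. Of the 47 members at 100 CPM or more, 38.3% fell and 6.38% rose in root mRNA, against 38.0% and 10.5% of the whole list. Potri.008G131200 had 8564 and 4992 CPM in drought root mRNA, against 16545 and 13605 CPM in control root mRNA. Both drought libraries were lower, but the log2 change of -0.98 (SE 0.31) had an adjusted p of 0.0723, and in root total RNA -0.97 (SE 0.30) had an adjusted p of 0.0755. Potri.008G131100 had 3494 and 2000.4 CPM in drought root mRNA, against 4235 and 3499.8 CPM in control root mRNA, a log2 change of -0.32 (SE 0.30, adjusted p = 0.46). Drought library 64 came close to control library 70, and the test was not passed. Potri.006G008300, rank 2, had 897 and 398 CPM in drought root mRNA, against 480.4 and 429 CPM in control root mRNA, and its arms overlapped (log2 change 0.68, SE 0.39, adjusted p = 0.244).

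Some members differed strongly between the libraries of one arm. In drought root mRNA, 24 members (12%) differed more than 2-fold between numbers 64 and 68 after scaling, compared with 2.85% of the 13282 genes of 10 CPM or more. In control root mRNA it was 26 members (13%), compared with 1.55%. The same libraries were mostly the higher ones: 149 members were higher in drought number 64 than in 68, and 138 were higher in control number 63 than in 70. Potri.010G060100 shows the range, with 281 and 26.3 CPM in drought root mRNA, against 124 and 68.7 CPM in control root mRNA. Its drought libraries lie on either side of both control libraries.

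Within the list, the share that fell was highest at its lower end. Among ranks 151 to 200, 52.0% fell in root mRNA and 54.0% in root total RNA. Among ranks 1 to 50 it was 32.0% and 36.0%, among ranks 51 to 100 30.0% and 32.0%, and among ranks 101 to 150 38.0% and 36.0%. By control level, 45.3% of the 53 members at 10 to 20 CPM fell in root mRNA, compared with 34.0% of the 100 members at 20 to 100 CPM and 38.3% of the 47 members at 100 CPM or more. These splits are descriptions and were not tested.

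Drought libraries of the long-term experiment took no part in the choice, and the same contrast of tissues was fitted in them. Under drought, 195 of the 200 members were higher in root than in apex, in young leaves and in mature leaves, each at an adjusted p under 0.05, where 23.9% of the 27522 genes tested were. Of the 200, 198 passed the filter on low counts. Most passed through root alone, since the highest drought shoot mean was under 1 CPM for 160 members, and the list was chosen for this contrast in control plants of the same experiment. The count was thus close to fixed by the choice and is given as a description. The 5 members not called were Potri.011G023600, Potri.004G229000, Potri.018G127700, Potri.001G308300 and Potri.014G106600, which are given as the exceptions after their values were seen. The first 4 had root levels of 0.355, 1.32, 7.93 and 0.372 CPM in drought root mRNA and ratios to the highest shoot tissue of 1.42 to 1.74. Potri.014G106600 had 2238 and 454 CPM in drought root mRNA, against 2434 and 2506 CPM in control root mRNA, and it also had 62.1 and 2.17 CPM in drought mature leaves.

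Applied to the drought libraries, the rule itself returned 122 of the 200 members (61.0%) among its own top 200. The median ratio of root to highest shoot was 25.0 under drought, where it was 37.1 in the control libraries that chose the list. Of the 200 members, 152 still had a mean of 10 CPM or more in drought root mRNA, and 4 were under 1 CPM. Potri.008G131200 and Potri.006G008300 remained the first 2 by the ratio, in reversed order, with ratios of 872 and 1252.

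In control roots the members were also present in total RNA. Their median was 28.8 CPM in control root total RNA, and 181 of them reached 10 CPM. The control root mRNA libraries, which chose the members for high values, are the denominator here, so the split below is not independent of the choice. Set over mRNA, 27 members were higher in total RNA (13.5%, where 20.5% of the 27904 genes tested were) and 48 were lower (24.0%, where 19.7% were). Potri.016G099200 was among the higher ones, with means of 46.2 CPM in control root total RNA and 20.3 CPM in control root mRNA (log2 1.32, SE 0.12, adjusted p = 0.00265). Potri.013G032700 had the lowest ratio, with 1.44 CPM in total RNA and 17.6 CPM in mRNA (log2 -3.48, SE 0.42, adjusted p = 0.00627). These values come from a fit that leaves out the pairing of the library types by number. With the library number as a block, 172 of the 200 members were called (86%, where 70.9% of all genes tested were). Of the 200, 69 were then higher in total RNA and 103 lower, where 35.6% and 35.3% of all genes tested were. Without the block, 75 members were called (where 40.2% of all genes tested were).

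The short-term experiment gave a second look at shoots, in total RNA. Of the 200 members, 162 were under 1 CPM in both short-term control shoot tissues and 15 reached 10 CPM in one of them. Of those 15, 8 had been under 1 CPM in every long-term control shoot tissue. They were Potri.015G058600, Potri.013G032900, Potri.005G258400, Potri.004G148200, Potri.009G168400, Potri.005G243100, Potri.011G001800 and Potri.001G059400, selected by those thresholds after the values were seen.

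Potri.015G058600 had 259 and 302 CPM in short-term control mature leaves and 142 and 130 CPM in short-term control apex. In the long-term control mRNA libraries it had 0.0469 and 0.0889 CPM in mature leaves and 0.195 and 0.0338 CPM in apex. In control root it had 16.5 and 15.6 CPM in total RNA and 20.3 and 17.8 CPM in mRNA. Its root level was thus nearly the same in both library types, while its shoot levels in the short-term and long-term experiments did not come near each other.

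Potri.013G032900, rank 8, followed the same pattern, with a mean of 229.5 CPM in short-term control mature leaves and no read in long-term control mature leaves. In control root it had 193 and 162 CPM in total RNA and 162 and 142 CPM in mRNA. Not all of the 8 had such similar root levels in both types. In the fit of control root without the block, Potri.005G243100 (log2 -1.02) and Potri.004G148200 (-0.76) were called lower in total RNA. Potri.001G059400 (0.87), Potri.011G001800 (0.59) and Potri.009G168400 (0.47) were called higher there, and the remaining members of the 8 were not called. Of the 8 members, 4 had a lower mean in control root total RNA than in their highest short-term control shoot tissue. Experiment and library type cannot be told apart in the shoot, because the short-term shoots were sequenced as total RNA and the long-term shoots as mRNA.

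**Figure D5:**
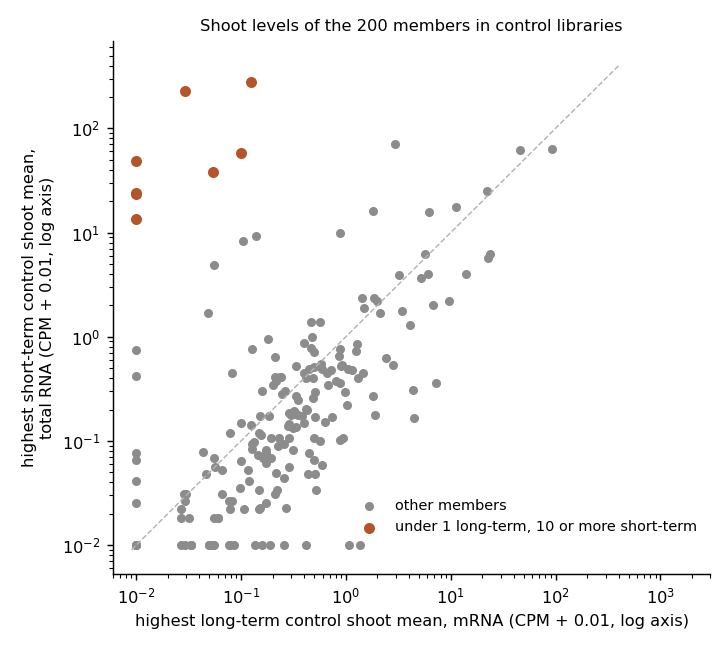
Highest control shoot mean of each member in the long-term mRNA libraries (horizontal) and in the short-term total RNA libraries (vertical), in CPM with 0.01 added, on log axes. Coloured points are the 8 members under 1 CPM in the long-term and at 10 CPM or more in the short-term control shoot, and the dashed line marks equality. These 8 lie at the upper left and are set off by the thresholds. Other members, such as Potri.016G011400 at 9.23 CPM in the short-term control shoot, lie just under the cut. Most other members lie at or below the line.

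Shoot drought comparisons could test only the members with enough shoot reads. Those members passed the filter through low levels in shoot, so their counts describe a subset and not the list. Some passed through 1 arm alone, such as Potri.T155100 (0 CPM in short-term control apex) and Potri.001G027100 (0 CPM in short-term drought apex). For such members the filter favoured a difference between the arms, so the counts called are not independent of the filter. In short-term apex, 90 members were tested, and 32 rose and 29 fell, where 30.0% of the 27027 genes tested rose and 32.3% fell. In short-term mature leaves, 65 were tested, and 12 rose and 11 fell, where 8.73% and 9.2% of all genes did. In long-term young leaves, 45 were tested, and 10 rose and 2 fell, where 4.62% and 6.83% of all genes did. In long-term mature leaves, 48 were tested, and 2 rose and 4 fell, where 1.29% and 4.07% of all genes did.

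In long-term apex, 62 members were tested and 0 were called by edgeR, where 0.0279% of all genes rose and 0.136% fell. There 20 members had an unadjusted p under 0.05 (32.3% of those tested, where 11.4% of all genes did), and DESeq2 called 6 (3.33%, where 1.55% of all genes were). The short-term mature leaf calls depended on the controls: 1 member was called without control number 19 and 0 without control number 49, where 0.435% and 0.357% of all genes were. In long-term mature leaves 1 member was called without control number 63 and 14 without control number 70, where 3.37% and 11.2% of all genes were.

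As a ratio of drought to control, the members' share of reads moved most in the short-term apex, although the difference in percentage points was larger in root. They held 0.394% and 0.403% of sense reads in drought apex (numbers 35 and 69), against 0.0672% and 0.0631% in control apex (numbers 19 and 49). The exact two-sided permutation p was 0.333, the smallest that 2 libraries against 2 allow. Potri.013G100700, rank 111, made 59.9% and 65.6% of the members' reads in the drought apex libraries, with 2356 and 2640 CPM in drought apex, against 31.6 and 18.7 CPM in control apex (log2 change 6.58, SE 0.34, adjusted p = 5.03e-05). In the root the same gene had 659 and 1209 CPM in drought mRNA, against 744 and 735 CPM in control mRNA, and its arms overlapped. It is singled out after its values were seen. By the rule for named genes, it was also among the 2 largest fold rises in short-term mature leaves. There it had 17.9 and 13.5 CPM under drought, against 1.24 and 0.747 CPM in control (log2 change 3.96, SE 0.29, adjusted p = 0.000883). That call was lost without control number 49.

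Potri.019G100000, rank 14, had the largest fold rise in short-term apex among the members that the rule for named genes picked. Potri.T155100 and Potri.004G019300 had larger log2 changes there, 10.95 and 9.31. Their drought means were 5.74 and 1.84 CPM and their control means 0 CPM. Both rises were called, and the rule did not pick them. Potri.019G100000 had 19.9 and 21.3 CPM in drought apex, against 0.0167 and 0.127 CPM in control apex (log2 change 8.28, SE 0.43, adjusted p = 4.88e-05). It passed the filter on low counts through the drought libraries alone, so this rise is not independent of the filter. In root mRNA it had 1270.2 and 1142 CPM under drought, against 1265 and 881 CPM in control, with no call. Its apex level under drought thus remained far below its root level.

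Potri.001G235500 passed the test as higher under drought in 6 of the 7 drought comparisons. Besides both root types, its log2 change was 7.35 in short-term apex (SE 0.69, adjusted p = 0.000536) and 3.38 in short-term mature leaves (SE 0.40, adjusted p = 0.00583). It was 4.88 in long-term young leaves (SE 0.45, adjusted p = 0.00415) and 3.60 in long-term mature leaves (SE 0.16, adjusted p = 0.00211). In long-term apex it had 2.70 and 2 CPM under drought, against 1.09 and 0.777 CPM in control, with an adjusted p of 0.182. Its shoot maximum was 50.2 CPM, in long-term drought mature leaves. That is below each of the 4 root mRNA libraries but above its mean of 44.9 CPM in control root total RNA.

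By the rule for named genes, Potri.018G100200, rank 197, had the largest fold rise in short-term mature leaves. Potri.007G114400 had a larger log2 change there, 4.73, but its drought mean of 0.819 CPM lay under that rule's minimum of 5 CPM. Potri.018G100200 had 215 and 309 CPM under drought, against 11 and 14.9 CPM in control (log2 change 4.30, SE 0.31, adjusted p = 0.00108). Without control number 19 its adjusted p was 0.0666, and without control number 49 it was 0.0599. In long-term mature leaves it fell, with 35.9 and 42.8 CPM under drought, against 82.8 and 67.3 CPM in control (log2 change -0.92, SE 0.16, adjusted p = 0.034), and that call was lost without control number 63 and without either drought library. The short-term and long-term changes of this gene thus had opposite signs, and the difference was not tested.

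Potri.012G136600, rank 122, fell in root and in both short-term tissues. It had 19.1 and 19.2 CPM in drought root mRNA, against 219 and 193 CPM in control root mRNA (log2 change -3.26, SE 0.13, adjusted p = 0.00526). In short-term mature leaves it had 1.47 and 0.176 CPM under drought, against 11.9 and 19.8 CPM in control (log2 change -4.32, SE 0.90, adjusted p = 0.0466), and that call was lost without control number 19, without control number 49 and with no count filter (adjusted p of 0.149 to 0.164). Potri.016G104300, rank 72, fell in long-term young leaves, with 9.25 and 6.39 CPM under drought, against 25.4 and 20.0 CPM in control (log2 change -1.5, SE 0.21, adjusted p = 0.00532). It also fell in long-term mature leaves (log2 change -3.4, SE 0.45, adjusted p = 0.0229), a call lost without control number 63. In short-term apex it rose, with means of 27.2 CPM under drought and 1.32 CPM in control (log2 change 4.26, SE 0.34, adjusted p = 0.000163). In root mRNA it had 655 and 429 CPM under drought, against 2009 and 572 CPM in control, where control number 63 stood far above the other 3 libraries and the test was not passed.

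The antisense strand of most members was nearly silent in root. In control root mRNA the median antisense share of a member's reads was 0.0461%, compared with 0.0402% over genes of 10 CPM or more, and 44 members had no antisense read. Of the members, 9 (4.5%) were above 1%, as were 5.31% of genes of 10 CPM or more. Antisense counts could be tested for 35 members in root mRNA, of which 5 rose and 4 fell, where 13.9% and 7.15% of the 3033 genes tested did. For root total RNA 40 were tested, of which 5 rose and 5 fell, where 9.97% and 6.6% of the 4000 genes tested did. Reads of a gene overlapping on the other strand would be counted here.

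Potri.009G168400 had the highest antisense share, 38.3% of its reads in control root mRNA. Its antisense counts were 130 and 109 in drought root mRNA, against 495 and 748 in control root mRNA (log2 change -2.30, SE 0.30, adjusted p = 0.00575). Its sense counts were 826 and 842 under drought, against 1093 and 913 in control (log2 change -0.16, SE 0.12, adjusted p = 0.355). In root total RNA the antisense counts were 267 and 190 under drought, against 727 and 1117 in control, and the sense strand again did not pass. The antisense strand fell while the sense strand was not called.

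Potri.007G022000, with the next highest antisense share at 18.9%, had the opposite arrangement. Its antisense counts were 459 and 348 in drought root mRNA, against 608 and 442 in control root mRNA, without a call (log2 change -0.27, SE 0.21, adjusted p = 0.385). Its sense counts were 770 and 576 under drought, against 2099 and 2399 in control (log2 change -1.65, SE 0.21, adjusted p = 0.0111). The antisense share of its reads was 37.5% under drought and 18.9% in control. Potri.001G235500 rose on both strands, with 127 and 121 antisense reads in drought root mRNA, against 11 and 8 in control root mRNA (log2 change 3.79, SE 0.32, adjusted p = 0.00294).

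Where intron and gene counts were both called, they changed in the same direction. An intron entry existed for 158 of the 200 members. In root mRNA 74 could be tested on sense intron reads, of which 20 fell and 9 rose, where 5.09% and 10.1% of the 12823 genes tested did. For root total RNA 100 could be tested, of which 34 fell and 10 rose, where 9.47% and 9.92% of the 17422 genes tested did. Of the 29 intron calls in root mRNA, 26 were in members whose gene-level sense count was called the same way and 0 in members called the opposite way. In root total RNA it was 38 of 44 and 0. Gene and intron counts come from the same libraries, and whether the gene counts include intron reads is not given in the sources used here.

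Some members are neighbours in the ID series. Of the 200, 19 form 8 runs of consecutive IDs, 7 of them pairs. The longest is Potri.011G048100 to Potri.011G048500, whose 5 members all fell in both library types, with log2 changes of -2 to -1.33 in root mRNA. Within it Potri.011G048300 had 28 and 20.6 CPM in drought root mRNA, against 106 and 103 CPM in control root mRNA. A nearby pair, Potri.011G049000 and Potri.011G049100, fell as well, with log2 changes of -1.74 and -1.62 in root mRNA. In 6 of the 8 runs all fitted changes in root mRNA had the same sign. Of all 200 members, 144 had a negative fitted change there, so a shared sign is common among members in general. Whether runs share a sign more often was not tested. Signs differed in the pair of Potri.014G037900, which rose (log2 change 1.24, SE 0.28, adjusted p = 0.0344), and Potri.014G038000, which had -0.74 without a call. Neighbouring genes of one family can share reads, so the values of such runs may not be independent of each other.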

How the data were processed

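Sense and antisense counts of whole reads per gene and per intron entry were used as the authors deposited them, 1 file per library. The tools DESeq2, HTSeq 0.6.0 and TopHat2 2.1.0 are listed without a role, per the submitters' processing notes, and the build, annotation and counting options are not given in the sources used here. Names of root files hold the word merged, and what was merged is not stated. Lines naming no gene, 3.96% to 4.36% of sense counts for root mRNA libraries and 10.7% to 12.5% for root total RNA ones, were left out of totals and tests.

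CPM is a count over the library's total sense gene count. The fits used edgeR 4.0.16 (limma 3.58.1, R 4.3.3) on all genes that passed its expression filter (a scaled count of 10, 15 in total), with TMM scaling, a robust quasi-likelihood fit and Benjamini-Hochberg adjustment over all genes tested. Standard errors are the log2 change over the root of F. Antisense and intron counts were scaled by the sense library sizes. Scripts were tested on simulated data. DESeq2 1.42.0, other filters and scalings, other choices of members and leaving out libraries were the alternatives.

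Drought was compared with control in the 4 libraries of each comparison, without pairing, since the arms share no number. Same-numbered root mRNA and total RNA libraries deviated from their group means together over 13486 genes (r = 0.897 in control, 0.913 in drought), which pairs them. Between other tissues r was -0.0207 to 0.491 and passed 0.1 in 8 of 9 control and 2 of 9 drought pairs. Since not every pair passed 0.1, those tissues were not treated as paired. A count of 0 allows up to 3 counts, and this floor covers counting error only.

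The members and lists were chosen with earlier results of these data known. Gene lists by product name (aquaporins, Casparian strip and suberin, nutrient uptake, secondary wall, drought response, terpenes, peroxidases and others) had 0 matched members and gave no result. As no ID had a name, the rule for named genes was at most 2 up and 2 down per comparison by fold change among called members whose arms did not overlap and whose mean was at least 5 CPM, and 2 per other item. Other IDs are said to be chosen after their values were seen.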

Additional observations from a re-analysis of the deposited data

Results flagged for a closer look

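A few members were called in one direction in root mRNA and in the other direction in a shoot tissue, with every drought library on one side of every control library in each. The difference between tissues itself was not tested for any of them, and the root was sampled at 25 days while the short-term tissues were sampled at 24 hours. Potri.001G288600 rose in root mRNA (log2 change 1.82) and fell in short-term apex (log2 change -3.11, with 2.66 and 1.59 CPM under drought, against 12.8 and 22.6 CPM in control) and in short-term mature leaves (log2 change -2.95). In long-term young leaves it rose, as in root (log2 change 2.58, adjusted p = 0.00374). Its changes in long-term apex (-1.79) and long-term mature leaves (1.95) were not called. In the other direction, Potri.007G022000 fell in root mRNA (log2 change -1.65) and rose in short-term apex (log2 change 1.23, with 15.9 and 22.6 CPM under drought, against 8.06 and 7.77 CPM in control). Potri.009G114600 fell in root mRNA (log2 change -1.36) and rose in short-term apex (log2 change 2.9, with 11.1 and 20.6 CPM under drought, against 2.70 and 1.30 CPM in control). Potri.003G113300 had log2 changes of -0.59 in root mRNA and 3.20 in short-term apex, where no library exceeded 2.35 CPM. Potri.011G109900 had log2 changes of -0.74 in root mRNA and 2.41 in long-term young leaves, where no library exceeded 1.22 CPM.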

How the results depend on the processing

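Of 181 alternative values of counts and medians, 137 were labelled as staying and 44 as moved. A count stayed if it was within a factor of 1.5. A median stayed if it moved by less than the SD of the members' median between the 2 drought libraries. That SD was 0.37 in root mRNA and 0.3 in root total RNA, which is wide beside the medians themselves. Counts could not be labelled reversed, so only the medians bear on direction. The members' median drought change stayed below 0 in both root types in all alternatives, from -0.88 to -0.41 when single libraries were left out of root mRNA and from -0.84 to -0.41 in root total RNA. With a 2-fold threshold 5 members rose and 31 fell in each root type, where 1.47% and 2.03% of all genes did in root mRNA and 1.26% and 1.82% in root total RNA. The top 100 had 8 up and 31 down in root mRNA and 8 up and 34 down in root total RNA, and the top 400 had 46 and 138, and 49 and 142. With a minimum of 50 CPM, 32 rose in each type, and 65 fell in root mRNA and 67 in total RNA. Members chosen with control 63 alone and tested against control 70 had 10 up and 37 down in root mRNA and 12 and 44 in total RNA, and the reverse gave 10 and 42, and 9 and 48. Over all genes, the fits against control 70 had 2.16% up and 4.7% down in root mRNA and 2.76% and 5.81% in total RNA, and those against control 63 had 1.69% and 2.48%, and 2.44% and 3.81%. Leaving out single libraries gave 9 to 25 up and 40 to 92 down in root mRNA, 11 to 21 up and 49 to 84 down in total RNA, 6 to 15 and 10 to 19 antisense calls in the 2 types, and 15 to 39 intron calls in root mRNA. It gave 0 to 33 calls in short-term mature leaves, 0 to 5 in long-term apex, 1 to 14 in long-term mature leaves and 41 to 58 between library types. Over all genes tested, the same fits called 4.17% to 31.5% in root mRNA, 6.25% to 24.9% in total RNA, 6.56% to 25.9% and 10.1% to 19.7% on the antisense strand of the 2 types and 5.01% to 24.3% of introns in root mRNA. For short-term mature leaves the share was 0.357% to 26.3%, for long-term apex 0.148% to 1.71%, for long-term mature leaves 2.18% to 11.2% and between library types 19.5% to 24.1%. In long-term apex DESeq2 called 6 members and a fit with no count filter 3 (1.55% and 0.488% of all genes). With the number as a replicate block, 172 members differed between root library types (70.9% of all genes did), 0 had a type by drought difference and 196 were higher in root than in shoot under drought (24.2% of all genes were). No paired analysis was possible for drought because the arms share no number. Leaving out a number in the root over shoot test could not be fitted. The cause of these moves was not tested. Low antisense counts limit that test to 35 members in root mRNA and 40 in total RNA.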
